A study of Xenopus laevis with 4 samples.

Results

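Keratin genes of Xenopus laevis gastrulae were followed through 4 Affymetrix arrays. A probe set belonged to the group when the platform's probe-to-gene table gave it 1 gene symbol that starts with krt and a digit, with no filter on signal. This rule found 29 probe sets for 23 genes among the 15611 probe sets of the array, 9304 of which carry 1 gene symbol. The krt12 genes (7 probe sets, 6 genes) were set beside the krt8 and krt18 genes (4 probe sets, 3 genes), with 18 probe sets of 14 other keratin genes. The suffixes .L and .S name the 2 homeologous copies of a gene in this species.

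The labels name no strain or genotype, and all embryos came from in vitro fertilised eggs. The xSGK1 embryos received 2 morpholinos against xSGK1, the Xenopus form of the kinase SGK1, at 40 ng each, and the controls received 80 ng of a control morpholino. Both were injected radially at the 4-cell stage, whole embryos were taken at stage 12, in gastrulation, and 100 ng of total RNA per array was labelled. The series text describes 2 independent experiments with both injections in each, so n = 2 per group. A morpholino is an antisense oligonucleotide that blocks translation or splicing, and the transcript of its target need not fall. The sgk1.L probe set gave 3071 and 3300 in xSGK1 embryos of experiments 1 and 2, against 2321 and 2839 in control embryos (limma adjusted p = 0.126 with the experiment as a block), which does not check the knockdown.

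Keratins are the intermediate filament proteins of epithelia, and a filament is built from pairs of an acidic type I and a basic type II keratin. Keratins 8 (type II) and 18 (type I) form the pair of simple epithelia, and in Xenopus filaments of this kind are already present in the oocyte. The krt12.4 genes, known as xK81, and krt70, known as xk70, encode type I keratins of the embryonic epidermis. Their transcription starts in the ectoderm of the gastrula, where BMP signalling favours epidermis over neural tissue.

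Signals are the deposited intensities brought to a trimmed mean of 500 per array. Log2 changes were taken on signal + 16 as the value in xSGK1 embryos less that in control embryos, and this scale understates changes of dim probe sets. Of the 29 keratin probe sets 15, from 11 genes, had a mean signal of at least 100. The nearest probe sets on either side of that limit were krt19.S, with a mean of 299.7, and the second krt7.L probe set, with a mean of 33.0. The remaining 13 dim probe sets lay between 0.50 and 24.9 on every array. They stand for krt12.2.L, krt12.2.S, krt12.6.S, krt15.1.S, krt17.S, krt51.L, krt55.L, krt57.L, krt61.L, krt62.L, krt78.6.L and krt78.7.L. Among these, krt12.6.S, krt51.L and krt55.L have xak among their RefSeq synonyms, the name of keratins of adult Xenopus skin. At this brightness no change could be read for them.

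Median signals of the 4 arrays were between 161 and 174. Of 18 measured marker genes of mesoderm, endoderm, organizer and neural ectoderm, 17 passed the signal filter, among them eomes.L, vegt.L and gmnn.L. The ratio of 3' to 5' signal of beta-actin, which rises when RNA is degraded or labelled incompletely, was 3.38 and 2.06 in xSGK1 embryos of experiments 1 and 2 and 3.11 and 2.24 in control embryos. It thus differed between the experiments more than between the injections. Its part in the results was not tested.

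The keratins of the embryonic epidermis were lower in xSGK1 embryos of both experiments, by a larger ratio in experiment 2. The krt8.1.S signal was lower too, while krt18.1 and krt19 showed no common change. With the experiment as a block, 8 of the 15 keratin probe sets past the filter fell (limma adjusted p under 0.05) and 0 rose. Among all 9251 probe sets tested 3.91% fell and 4.09% rose in that fit. The 8 stand for 7 of the 11 genes, and they include all 3 bright krt12 probe sets and both krt8.1.S probe sets. Without the block no keratin and no other probe set passed (0.00% called, each keratin at an adjusted p of 0.999). At an unadjusted p under 0.05 that fit held 2 keratin probe sets, both of krt8.1.S, against 3.61% of all probe sets. In whole embryos, fewer cells of a type and less RNA per cell cannot be told apart.

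**Figure D1:**
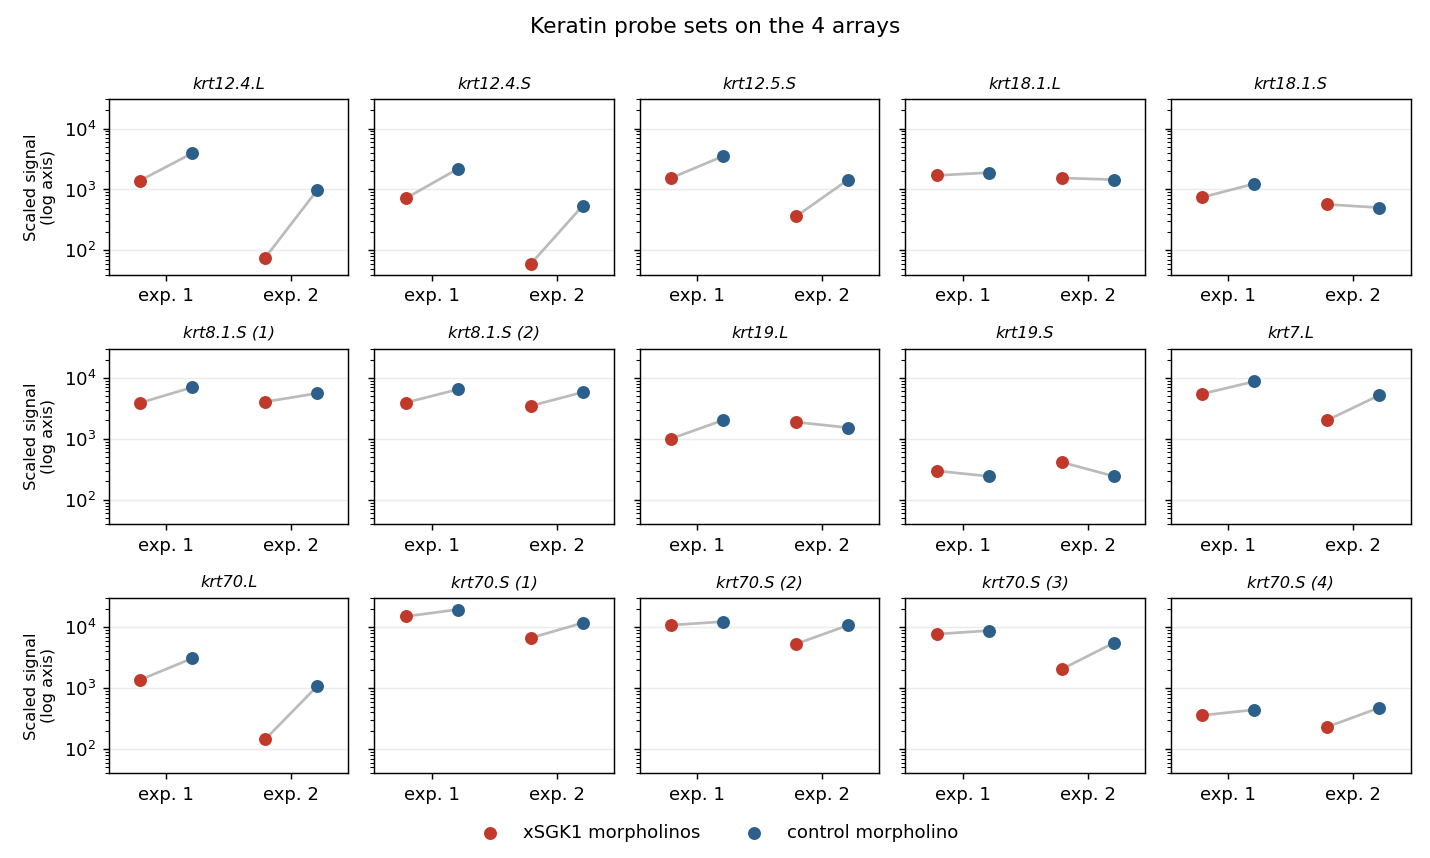
Scaled signal (log axis) of the 15 keratin probe sets with a mean of at least 100, with 1 panel per probe set and 1 point per array. Red points are xSGK1 embryos, blue points control embryos, and grey lines join the arrays of 1 experiment (numbers in brackets count the probe sets of a gene from bright to dim). For krt12.4.L, krt12.4.S and krt70.L the lines are steep and the points of experiment 2 lie below those of experiment 1, while krt18.1.L stays between 1454 and 1891.

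The epidermal gene krt12.4.L gave signals of 1402 and 75.4 in xSGK1 embryos of experiments 1 and 2, against 3922 and 974 in control embryos. Each xSGK1 array was below the control of its own experiment, by 2.80-fold and 12.9-fold, but the groups overlapped, because the xSGK1 array of experiment 1 was above the control array of experiment 2. The mean log2 change was -2.46 ± 0.42 SE (limma adjusted p = 0.0305 with the block). It was -1.47 in experiment 1 and -3.44 in experiment 2, and this moderated SE does not show how far they lie apart.

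Its homeolog krt12.4.S ran in parallel, with 713 and 59.5 in xSGK1 embryos and 2173 and 541 in control embryos. The ratios were 3.05-fold and 9.09-fold lower, the second resting on the dim signal of 59.5. The log2 change was -2.23 ± 0.30 SE (limma adjusted p = 0.0241 with the block). Probe sets of such close copies can take up each other's transcript, so the 2 are not independent readings. A further gene of the group, krt12.5.S, gave 1544 and 362 in xSGK1 embryos and 3520 and 1452 in control embryos. It was 2.28-fold and 4.01-fold lower, and its log2 change was -1.57 ± 0.20 SE (adjusted p = 0.0232).

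Leaving out 1 array changed the size of these values. The array left in its group was then set against both arrays of the other group. The difference between the experiments therefore entered the change. In the fit without a block the krt12.4.L change was -4.43 when the xSGK1 array of experiment 1 was left out and -0.48 when that of experiment 2 was. Leaving out a control array gave -1.46 for experiment 1 and -3.45 for experiment 2. Between the same xSGK1 omissions krt12.4.S ran from -3.87 to -0.60 and krt12.5.S from -2.59 to -0.55. The fit with the block cannot be repeated on 3 arrays, as no residual degrees of freedom remain. Without the intensity trend in the variance, the block kept 2 of the 8 calls, krt12.4.S and krt12.5.S, and krt12.4.L had an adjusted p of 0.0538. After quantile normalization 5 of the 8 remained with the block, and krt70.L, the brightest krt70.S and the brighter krt8.1.S probe set did not (adjusted p = 0.0546, 0.0717 and 0.0550).

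The other epidermal type I gene, krt70, was measured by 5 bright probe sets. For krt70.L the signals were 1369 and 144 in xSGK1 embryos of experiments 1 and 2, against 3084 and 1077 in control embryos. It was 2.25-fold and 7.48-fold lower, with a log2 change of -1.97 ± 0.35 SE (adjusted p = 0.0317 with the block), and the groups again overlapped through the first experiment's xSGK1 array. The brightest probe set of krt70.S gave 15047 and 6667 in xSGK1 embryos and 19531 and 11772 in control embryos. These were falls of 1.30-fold and 1.77-fold (log2 change -0.60 ± 0.11 SE, adjusted p = 0.0336). The 3 other krt70.S probe sets had changes of -0.61, -0.81 and -0.64 and did not pass (adjusted p = 0.0935, 0.109 and 0.111), though each was lower in both experiments. The IDs of those with -0.61 and -0.81 carry the suffix for probes shared with other sequences, so they add little independent evidence. The ID of the one with -0.64 carries no such suffix. That of the brightest, which passed, ends in _a_at, a suffix also counted here among those that may cross-hybridise.

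The change of krt70.L minus that of the brightest krt70.S probe set was -0.79 in experiment 1 and -1.95 in experiment 2. An exact two-sided permutation test of this difference gave p = 0.333, the smallest that 2 arrays against 2 allow, so it does not show that the homeologs differ. The control signal of 19531 was also the highest of any probe set on its array, and saturation could not be checked from the deposited values. In the fit without a block, leaving out the second experiment's xSGK1 array gave a change of -0.41 for krt70.L and -0.01 for the brightest krt70.S probe set. Leaving out that of the first gave -3.52 and -1.18 in the same order. These values again hold the difference between the experiments.

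The type II keratin gene krt7.L, whose RefSeq synonyms include xenck55(5/6), was lower alongside them. Its bright probe set, whose ID also ends in _a_at, gave 5463 and 2017 in xSGK1 embryos and 8734 and 5185 in control embryos. That was 1.60-fold and 2.57-fold lower, with a log2 change of -1.02 ± 0.16 SE (adjusted p = 0.0279 with the block). In the fit without a block the change was -1.73 without the xSGK1 array of experiment 1 and -0.30 without that of experiment 2. Both values hold the difference between the experiments too. The dim second probe set read 26.7 and 25.7 in xSGK1 embryos and 44.6 and 34.9 in control embryos. It was lower in both experiments but under the signal filter.

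Of the krt8 and krt18 genes only krt8.1.S passed, and whether the genes differ in their change was not tested. The type II gene krt8.1.S gave 3889 and 4041 in xSGK1 embryos, against 6994 and 5591 in control embryos, and here the groups did not overlap. Both xSGK1 arrays were below both controls in 13.8% of all probe sets tested. The log2 change was -0.66 ± 0.12 SE (adjusted p = 0.0315 with the block), as 1.80-fold and 1.38-fold falls in experiments 1 and 2. A second probe set built on the same transcript record gave 3919 and 3468 in xSGK1 embryos and 6458 and 5818 in control embryos (log2 change -0.73 ± 0.09 SE, adjusted p = 0.0229). Its ID carries the suffix for probes shared with other sequences, so it adds little independent evidence.

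The type I partner krt18.1.L stood at 1701 and 1543 in xSGK1 embryos and at 1891 and 1454 in control embryos. Its log2 change was -0.03 ± 0.13 SE (adjusted p = 0.888 with the block). Its homeolog krt18.1.S gave 743 and 570 in xSGK1 embryos and 1241 and 503 in control embryos. The xSGK1 array was lower in experiment 1 and higher in experiment 2 (log2 change -0.28 ± 0.23 SE, adjusted p = 0.459).

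The type I gene krt19 also gave mixed readings. Signals of krt19.L were 1004 and 1882 in xSGK1 embryos and 2027 and 1524 in control embryos (log2 change -0.35 ± 0.29 SE, adjusted p = 0.456 with the block). For krt19.S they were 298 and 414 in xSGK1 embryos and 243 and 244 in control embryos. Both xSGK1 arrays were above both controls for krt19.S, as in 16.3% of all probe sets, and its change of 0.50 ± 0.19 SE did not pass (adjusted p = 0.139). It was the single bright keratin probe set with a positive change. Of the others krt18.1.L, krt18.1.S and krt19.L had opposite signs in the 2 experiments, 3 of the 15, as had 27.3% of all probe sets.

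**Figure D2:**
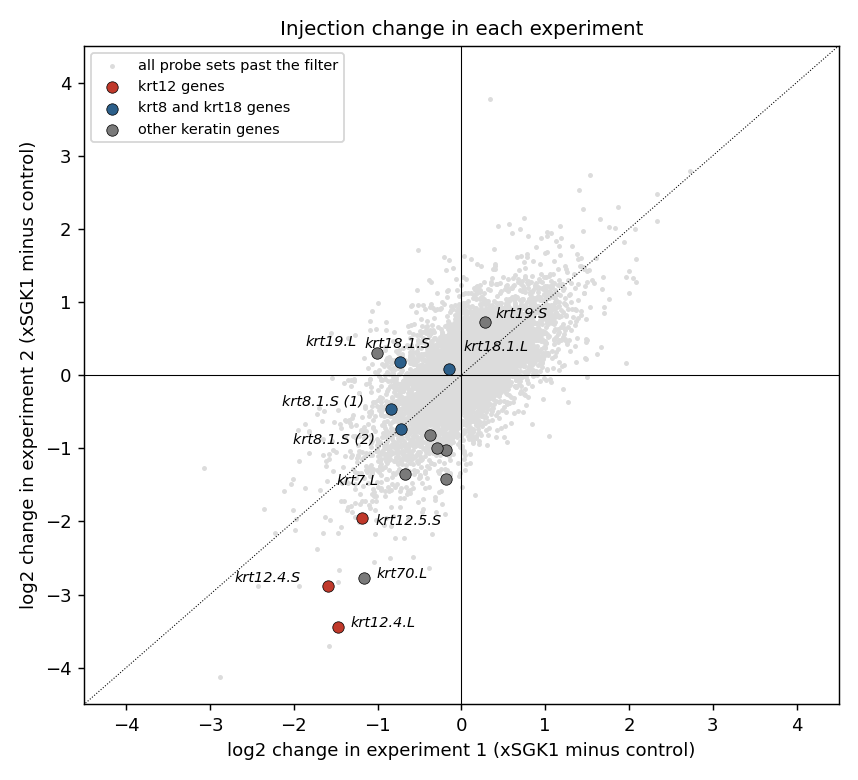
Log2 change between injections (xSGK1 minus control) in experiment 1 (x axis) and in experiment 2 (y axis), with 1 point per probe set and a dotted line of equal change. The 3 krt12 probe sets (red) and krt70.L lie at the lower left and below the line, krt8.1.S lies between -0.84 and -0.47 on both axes, and krt18.1.L, krt18.1.S and krt19.L have opposite signs in the 2 experiments. The unlabelled grey-filled circles are the krt70.S probe sets.

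Side by side, the median log2 change was -2.23 for the 3 bright krt12 probe sets, -0.47 for the 4 of krt8 and krt18, and -0.62 for the 8 of other keratin genes. Over all 9251 probe sets it was 0.04. By experiment the krt12 median was -1.47 in experiment 1 and -2.88 in experiment 2, that of krt8 and krt18 was -0.72 and -0.19, and that of all probe sets 0.04 in both. All 3 krt12 probe sets had the larger log2 fall in experiment 2, though the smaller fall in signal. Of the krt8 and krt18 probe sets, those of krt18.1 changed sign, as did 27.3% of all probe sets, and krt18.1.L only from -0.15 to 0.085. Of krt8.1.S 1 probe set was lower by less in experiment 2 and the other by about as much in both. With 4 arrays an interaction of injection and experiment leaves no residual degrees of freedom, so this was not tested. The krt8 and krt18 median was -0.17 without the control array of experiment 1, -0.81 without that of experiment 2, and -0.28 without probe sets that may cross-hybridise. At least 2-fold lower in both experiments were all 3 krt12 probe sets and krt70.L, 4 of the 15, against 1.47% of all probe sets. Lower in both experiments to any degree were 11 of the 15, against 31.9%.

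The change of krt12.4.L minus that of the brighter krt8.1.S probe set was -0.63 in experiment 1 and -2.97 in experiment 2. An exact two-sided permutation test over the 4 arrays gave p = 0.667 for this difference. That test counts the difference between the experiments as spread and could not have gone under 0.333, so it does not decide whether the changes differ.

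Keratin signals also differed between the experiments. These comparisons use the same 4 arrays as the injection comparisons, so the 2 sets of values are not independent. In the limma fit with the injection as a term, 9 of the 15 keratin probe sets were lower in experiment 2 and 0 higher, against 19.9% and 20.9% of all probe sets. The krt12.4.L signal was 75.4 in experiment 2 against 1402 in experiment 1 with xSGK1 morpholinos, and 974 in experiment 2 against 3922 in experiment 1 with the control morpholino. Its log2 difference, experiment 2 minus experiment 1, was -2.97 ± 0.42 SE (adjusted p = 0.00519), next to -2.46 for the injections. The differences of krt12.4.S, krt12.5.S and krt70.L were -2.62, -1.66 and -2.31 (adjusted p = 0.00371, 0.00390 and 0.00615). Those of krt7.L and of the brightest krt70.S probe set were -1.09 and -0.95.

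The krt8.1.S probe sets barely differed between the experiments, with -0.13 and -0.16 (adjusted p = 0.389 and 0.186), although the injections separated them. The reverse held for krt18.1.S, with -0.82 (adjusted p = 0.0344) between the experiments and no call between the injections. In 8 of the 15 keratin probe sets, the signals ran from high to low in the order control of experiment 1, xSGK1 of experiment 1, control of experiment 2, xSGK1 of experiment 2. They are the 3 krt12 probe sets, krt70.L, krt7.L and 3 of krt70.S. That order was seen in 13.6% of all probe sets.

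**Figure D3:**
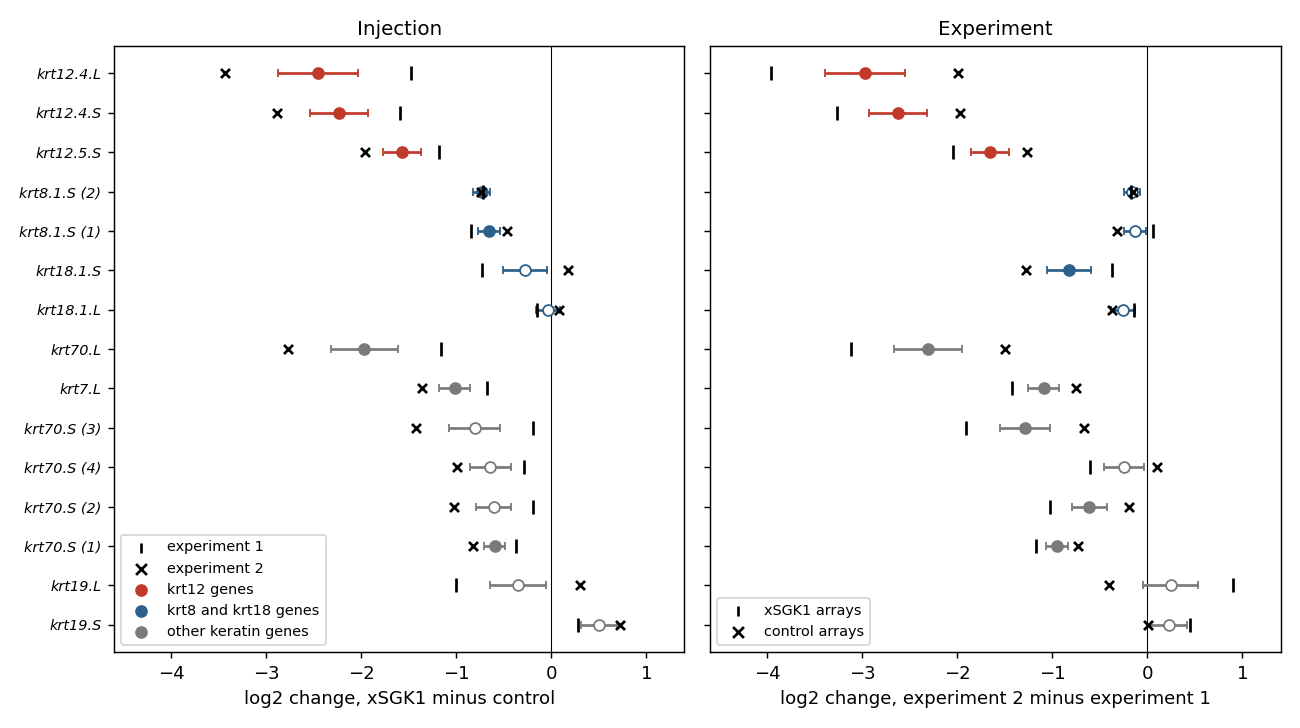
Log2 change of each bright keratin probe set between the injections (left, xSGK1 minus control) and between the experiments (right, experiment 2 minus experiment 1), from the limma fit with both terms. Circles are the mean change with its SE, filled where the adjusted p is under 0.05, and black marks are the single values behind the mean. The krt12 genes and krt70.L are farthest to the left in both panels, and krt8.1.S is filled in the left panel, at -0.66 and -0.73, and open in the right one.

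In the RefSeq annotation of assembly Xenopus_laevis_v10.1, to which all 23 genes were matched by gene identifier, the measured genes lie in keratin clusters. The genes krt12.4.S, krt12.5.S and krt12.6.S follow each other with 0 annotated genes between them. The first and second fell with the block, and krt12.6.S was dim on all arrays. The genes krt18.1.S and krt8.1.S are direct neighbours too, with 0 genes between them, and krt8.1.S passed where krt18.1.S did not. The type I genes krt70.L and krt19.L, with 3 genes between them, had log2 changes of -1.97 and -0.35. In experiment 1 the brighter krt8.1.S probe set and krt18.1.S had changes of -0.84 and -0.73, and in experiment 2 of -0.47 and 0.17. Whether neighbouring genes differ in their change was not tested.

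Outside the keratins, the genes with 1 symbol whose 4-array pattern was nearest to that of krt12.4.L were found by the root mean square difference of log2 values centred on each probe set's mean, over 4 arrays and 6165 candidates. The nearest was otogl2.L, at a distance of 0.12, with 969 and 50.1 in xSGK1 embryos and 2934 and 847 in control embryos. Next came itln1.L, a secreted lectin of the embryonic skin, at 0.40, with 529 and 50.0 in xSGK1 embryos and 2914 and 471 in control embryos. A second otogl2.L probe set followed at 0.57. For comparison krt12.4.S lay at 0.27, krt70.L at 0.42, krt12.5.S at 0.85 and krt7.L at 1.23. The krt70.S probe sets lay at 1.19 to 1.67, and the brighter krt8.1.S probe set at 1.78. From that krt8.1.S probe set the krt70.S probe sets lay at 0.28 to 0.71. The epidermal keratins thus did not all share the pattern of krt12.4.L. Nearest to krt8.1.S were rpsa.S (0.04), dusp12.L (0.05) and elof1.S (0.05), which encode a ribosomal protein, a phosphatase and a transcription elongation factor. With 4 points many probe sets can follow 1 pattern.

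Genes that act upstream of or beside keratins in epidermis were counted in the same fit, in which 3.91% of all probe sets fell and 4.09% rose. Of 23 regulators of epidermal fate past the filter 2 fell and 0 rose with the block, with a median log2 change of -0.26. The homeobox gene msx1.L gave 1078 and 924 in xSGK1 embryos and 1779 and 2103 in control embryos (adjusted p = 0.0286). The GATA factor gene gata3.S gave 219 and 59.0 in xSGK1 embryos and 481 and 122 in control embryos (adjusted p = 0.0336), with the experiments again far apart. The next by the size of the test statistic, gata2.L (-0.66) and the grainyhead-like gene grhl3.L (-0.48), did not pass (adjusted p = 0.0729 and 0.132). Of the 23 genes 10 were lower in both experiments, against 31.9% of all probe sets. Others had positive changes without passing, such as foxi1.L (0.63, with opposite signs in the experiments) and foxi4.2.S (0.27).

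Of 14 other products of epidermis and surface epithelium 2 fell and 3 rose, against 3.91% and 4.09% of all probe sets, with a median of 0.01. The falls were itln1.L and the annexin gene anxa2.S (524 and 137 in xSGK1 embryos, 902 and 304 in control embryos, adjusted p = 0.0334). The homeolog anxa2.L did not pass, with log2 changes of -1.35 in experiment 1 and 0.50 in experiment 2. The rises were 3 claudin genes, whose products form tight junctions, led by cldn6.2.S with 7999 and 6807 in xSGK1 embryos and 3726 and 3245 in control embryos (adjusted p = 0.0182). Among the rises were cldn6.2.S and its homeolog cldn6.2.L, and such close copies are not independent readings. Of the 14 genes, 5 were lower in both experiments, against 31.9% of all probe sets. The genes of this list therefore did not fall throughout, which depends on the genes it holds. It lacks otogl2.L, which was picked above by its likeness to krt12.4.L. The changes of its 2 probe sets, -2.64 and -1.97, follow from that choice and say nothing about this list.

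Among 15 genes that attach keratin filaments or build cell junctions 1 fell and 0 rose, near the 3.91% and 4.09% of all probe sets, with a median of -0.03. It was evpl.L, which encodes envoplakin, a linker of keratin filaments to desmosomes (389 and 175 in xSGK1 embryos, 869 and 461 in control embryos, adjusted p = 0.0232). The plakophilin gene pkp3.S (-0.76), the periplakin gene ppl.L (-1.27) and krtcap3.L (0.25) did not pass (adjusted p = 0.0564, 0.0602 and 0.260). Of 6 genes for other intermediate filaments, among them vimentin vim.L (-0.35) and the lamin gene lmnb2.S (-0.38), limma called 0 with the block. With 3.91% and 4.09% of all probe sets called, so few genes cannot show whether this group differs from the rest. At an unadjusted p under 0.05 that fit held 0 of them, and the share of all probe sets was not counted.

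The list of markers of mesoderm, endoderm, organizer and neural ectoderm had 17 genes past the filter. Of these 1 fell and 0 rose, again near the 3.91% and 4.09% of all probe sets. The median of this mixed list was -0.13, and the medians of the experiments were 0.27 and -0.28. The gene that fell was the muscle regulator myod1.S, with 541 and 195 in xSGK1 embryos and 935 and 380 in control embryos (adjusted p = 0.0336). Its signals and those of the array's a1Act control probe set (3' end, 152 and 2.60 in xSGK1 embryos, 955 and 29.8 in control embryos) fell in the same array order as those of krt12.4.L. Their part in the keratin result was not tested.

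**Figure D4:**
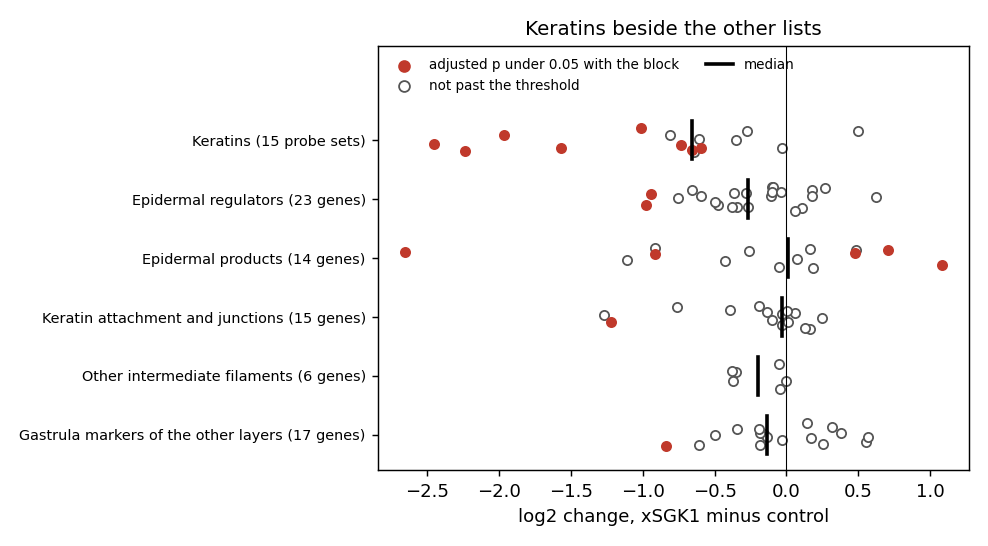
Log2 change (xSGK1 minus control) of the 15 bright keratin probe sets and of the genes of 5 other lists, each gene by its brightest probe set. Filled points passed an adjusted p of 0.05 with the experiment as a block, and black bars are medians. The keratins have a median of -0.66, while the medians of the other lists lie between -0.26 and 0.01.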

How the data were processed

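Biotinylated cRNA from whole-embryo RNA was read on 1-colour Affymetrix arrays, 1 per sample, per the labels' protocols. The deposited intensities are linear signals per probe set from MAS5 and GCOS (version 1.4, per the series text and the submitters' processing notes), and no detection calls were used here. Each array was scaled to a 2% trimmed mean of 500, log2(signal + 16) was taken, and 9251 probe sets entered the tests after 120 controls and all means under 100 had been dropped. Tests were two-sided moderated ones from limma 3.58.1 (R 4.3.3), with the variance following an intensity trend and p-values adjusted by Benjamini-Hochberg over all 9251.

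The fit without a block was the one laid down. Replicate numbers were taken to stand for the experiments, because both injections belong to each of the independent experiments in the series text, and the difference between the control arrays correlated with that between the xSGK1 arrays across probe sets (Pearson 0.838, above the 0.1 required). The blocked fit is therefore given too. The limma p-values rest on a moderated variance, which borrows from other probe sets. They therefore do not measure only a probe set's own spread between these arrays. With 4 arrays all estimates are imprecise. The other lists were represented by the brightest probe set of each gene, and up to 4 genes per list were named by the largest moderated statistic of the blocked fit. All bright keratin probe sets are described. Members and lists were chosen with earlier results of these data known. The limma fits were tested on simulated data in which the injection effect was the same in both experiments. That setting does not cover probe sets such as krt12.4.L, with -1.47 and -3.44 in the 2 experiments, so it does not check their calls. The platform annotation is not of a named genome build, so no coordinates are given. Sequences were not used here. Figures were drawn with matplotlib 3.10.9.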

Additional observations from a re-analysis of the deposited data

Results flagged for a closer look

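Among the bright keratin probe sets 3 changed in opposite directions in the 2 experiments, as did 27.3% of all probe sets tested. The log2 change of krt19.L was -1.002 in experiment 1 and 0.30 in experiment 2. That of krt18.1.S was -0.73 and 0.17, and that of krt18.1.L was -0.15 and 0.085. Each value rests on 1 array per injection, and the difference between the experiments was not tested.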

How the results depend on the processing

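The number of probe sets called for the injection was 0 without a block and 740 with the replicate number as a block. With the block it was 827 at an offset of 1, 1136 at an offset of 64, 664 with no signal filter, 524 after quantile normalization, 1531 after cyclic loess normalization and 543 without the intensity trend. In the same order the keratin probe sets called lower, of the 15 bright ones, were 8 with the block and then 8, 8, 8, 5, 11 and 2. Without a block they were 0 under all of these settings. In the first blocked fit 3.91% of all probe sets fell and 4.09% rose. The totals of the other settings hold rises and falls together, and the share that fell was not counted there. These keratin counts therefore have no background beside them. With 1 array left out and no block the calls ran from 0 to 110 and those of keratins from 0 to 8, the highest without the xSGK1 array of experiment 1. There the lone xSGK1 array is assumed to vary like the controls. Leaving out 1 array also leaves the experiments unbalanced between the injections, so their difference enters every change from such a fit. The krt12 median ran from -3.87 without the xSGK1 array of experiment 1 to -0.55 without that of experiment 2. With no signal filter it was -0.37, because the dim krt12 probe sets then enter. For the same reason the median difference between the krt12 changes of the 2 experiments was -0.077 against -1.30. At an offset of 1 that difference was -1.56, and at an offset of 64 it was -0.77. With 1 array left out the change of krt18.1.L ran from -0.22 to 0.15, that of krt18.1.S from -0.91 to 0.36, that of krt19.L from -0.80 to 0.10 and that of the third krt70.S probe set from -1.76 to 0.15. The other 11 bright keratin probe sets kept their sign in these fits. Without the xSGK1 array of experiment 2, though, the brightest krt70.S probe set came down to -0.01 and the second to -0.09. Calls between the experiments ran from 2699 with a signal filter of 300 to 4228 after cyclic loess normalization, and 3775 were made in the main setting. The cause of the other differences was not tested. Probe sets under a mean signal of 100 give no usable change here.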
